A study of Mus musculus with 10 samples.

Results

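The Wnt ligands and the receptors that bind them at the cell surface were followed through 10 RNA-seq libraries of cultured MC3T3-E1 cells, which are pre-osteoblasts first grown from the calvaria of newborn mice, exposed to β-ecdysterone, a plant sterol. The group holds 34 genes, of 29583 rows in the deposited table, chosen by name: 19 Wnt ligands, 10 frizzled receptors, the co-receptors Lrp5 and Lrp6, and the tyrosine kinase-like receptors Ror1, Ror2 and Ryk. All 34 were found in the table. Standard medium carried the sterol at 0, 100, 150 or 200 μM, culture lasted 5 or 10 days, and each dose and day had 1 library. The labels give the strain C57BL/6 and the age newborn for every library, and name the source as bone marrow mesenchymal stem cells, whereas the titles name the line MC3T3-E1. The other 2 libraries, A-5 and B-4, are labelled untreated, with no dose and no time.

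Because each dose had 1 library on each day, the 3 doses served as the replicates of treated cells (6 libraries), and cells at 0 μM had 1 library on day 5 and 1 on day 10. P-values therefore measure the spread between these libraries, doses included, and not between separate cultures of 1 dose. Library totals ran from 27108562 to 58218009 counts, and the floor of 3 counts that a count of 0 allows stood for 0.0515 to 0.111 CPM (counts scaled to the library total), which covers counting error only. The osteoblast markers checked were abundant, with a summed level of 2388 to 2703 FPKM (fragments per kilobase of transcript, scaled to library size) at 0 μM and 1860 to 3029 FPKM in treated cells, most of it Col1a1 and Spp1. Some osteoblast markers stood higher in every treated library than in either 0 μM library, and how many of all genes did so was not counted. These were Ibsp (0.292 and 0.371 FPKM at 0 μM, 31.6 to 342 FPKM treated), Alpl (at most 0.0225 against 5.70 to 22.7 FPKM), Sp7 (1.53 and 1.86 against 15.6 to 38.1 FPKM) and Runx2 (14.8 and 16.3 against 33.4 to 44.5 FPKM). Spp1 stood lower, with 1084 and 1095 FPKM at 0 μM and 500.2 to 947 FPKM treated. Markers of macrophages, adipocytes, endothelium and skeletal muscle each summed to at most 4.04 FPKM in any dosed library. Macrophage markers summed to 1.16 to 1.26 FPKM at 0 μM and 0.716 to 1.05 FPKM in treated cells, skeletal muscle markers to 0.586 to 0.757 against 1.44 to 2.69 FPKM, endothelial markers to 0.163 to 0.199 against 0.299 to 0.490 FPKM, and chondrocyte markers to 18.2 to 20.1 against 17.7 to 30.1 FPKM. Their part in the results was not tested.

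Wnts are secreted glycoproteins that carry a lipid, which the enzyme Porcn attaches. A Wnt that binds a frizzled together with Lrp5 or Lrp6 stops the breakdown of β-catenin, which then acts with the Tcf and Lef factors on target genes in the nucleus. Wnts that bind Ror1, Ror2 or Ryk, with or without a frizzled, act on cell shape and movement through routes that do not need β-catenin. In bone, the β-catenin route is known to favour osteoblast formation, and loss of LRP5 in people lowers bone mass.

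In cells treated with β-ecdysterone, 6 of the 22 genes tested rose: the ligands Wnt4, Wnt11 and Wnt6, the receptors Fzd7 and Fzd9, and the co-receptor Lrp5. The ligands Wnt5b and Wnt9a fell. These shares were 27.3% and 9.09%, against 13.4% and 5.98% over all genes tested. When A-5 and B-4 took the place of 0 μM, Lrp5, Fzd9 and Wnt5b were no longer called, and Lrp5 had 143 FPKM in B-4. The largest change in amount of mRNA was in Lrp5, from 38.0 FPKM on average at 0 μM to 135 ± 22.3 FPKM (SD, n = 6) in treated cells, whereas its relative Lrp6 had 25.0 FPKM at 0 μM and 21.9 ± 2.17 FPKM (SD, n = 6) in treated cells. The largest fold changes were in genes that were close to absent at 0 μM. Wnt4 rose from 0.0811 to 1.66 ± 0.685 FPKM (SD, n = 6), and Fzd9 from 0.0907 to 1.36 ± 0.205 FPKM (SD, n = 6).

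Promoter windows are shown for 5 of the 6 genes called higher, so that a reader can see what their start regions hold, and Lrp5 has none. The windows, from RefSeq on the build GRCm38.p6, run from 250 bases before to 50 bases after an annotated start, and 24 of the 34 genes have one. They are printed 5′ to 3′ on the strand of the gene. Capitals mark matches, on either strand, to 5 short motifs. These were the GC box GGGCGG, the core of Tcf and Lef sites CTTTGA, the RUNX core TGTGGT, the core of hypoxia response elements ACGTG and the TATA box TATAAA. Matches can overlap, as where the core ACGTG runs into the GC box in Wnt11 and Fzd9, or where ACGTG is read on both strands of the same letters in Fzd9. The windows are Wnt4 at chr4:137277385-137277684, Wnt6 at chr1:74771642-74771941, Wnt11 at chr7:98834862-98835161 and Fzd7 at chr1:59481897-59482196 on the plus strand, and Fzd9 at chr5:135250998-135251297 on the minus strand. The Fzd7 window follows the start in RefSeq and ends upstream of the gene start in GENCODE, so the annotations differ on where Fzd7 begins.
Wnt4: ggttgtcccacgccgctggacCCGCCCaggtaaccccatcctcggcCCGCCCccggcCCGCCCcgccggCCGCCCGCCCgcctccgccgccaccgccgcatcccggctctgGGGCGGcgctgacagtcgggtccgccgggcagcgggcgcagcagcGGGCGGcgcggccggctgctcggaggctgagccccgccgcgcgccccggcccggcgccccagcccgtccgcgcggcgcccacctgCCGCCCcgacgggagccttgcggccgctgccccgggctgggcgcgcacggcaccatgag
Wnt6: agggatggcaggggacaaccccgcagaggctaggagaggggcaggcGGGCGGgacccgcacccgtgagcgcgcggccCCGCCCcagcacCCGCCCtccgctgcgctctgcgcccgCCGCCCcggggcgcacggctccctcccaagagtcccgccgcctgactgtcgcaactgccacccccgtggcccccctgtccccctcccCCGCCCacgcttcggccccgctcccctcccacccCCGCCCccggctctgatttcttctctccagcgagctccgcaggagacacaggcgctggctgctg
Wnt11: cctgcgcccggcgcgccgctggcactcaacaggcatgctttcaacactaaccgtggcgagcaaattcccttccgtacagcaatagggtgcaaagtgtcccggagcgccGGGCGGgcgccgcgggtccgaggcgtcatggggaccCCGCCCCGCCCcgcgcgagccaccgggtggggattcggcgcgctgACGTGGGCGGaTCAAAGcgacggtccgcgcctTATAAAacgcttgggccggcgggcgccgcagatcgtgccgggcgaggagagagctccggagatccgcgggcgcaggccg
Fzd7: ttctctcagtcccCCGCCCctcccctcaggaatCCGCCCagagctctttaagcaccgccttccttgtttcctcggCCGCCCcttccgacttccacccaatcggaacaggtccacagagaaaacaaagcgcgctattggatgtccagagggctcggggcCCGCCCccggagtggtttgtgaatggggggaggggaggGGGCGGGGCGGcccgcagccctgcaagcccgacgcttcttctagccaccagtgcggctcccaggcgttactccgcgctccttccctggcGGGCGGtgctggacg
Fzd9: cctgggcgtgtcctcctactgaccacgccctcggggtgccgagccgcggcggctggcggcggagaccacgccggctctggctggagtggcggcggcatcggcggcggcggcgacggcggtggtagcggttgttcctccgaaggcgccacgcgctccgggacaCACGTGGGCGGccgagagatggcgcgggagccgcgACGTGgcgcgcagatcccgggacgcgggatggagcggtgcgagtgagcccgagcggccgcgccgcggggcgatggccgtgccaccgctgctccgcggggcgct

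The windows were rich in G and C, with 84.3% in Wnt4, 78.0% in Fzd9, 76.7% in Wnt6, 71.3% in Wnt11 and 66.7% in Fzd7, against a median of 52.7% over 32851 windows of the same length. The windows of all members with one, these 5 included, had a median of 71.3%, from 48.3% to 86.3%. Whether the risers differ from the others by this measure was not tested. The GC box occurred in each of the 5 windows, 8 times in Wnt4, 7 in Fzd7, 6 in Wnt6, 4 in Wnt11 and 1 in Fzd9, and in 35.7% of all windows. Members not called higher held it too, such as Fzd5 (10 times), Wnt3a (9) and the falling Wnt9a (5), while Wnt10b, Fzd1, Wnt16 and Wnt8b had none. The Tcf and Lef core was found in Wnt11 of these 5, at 50 bases before the start, and in 16.0% of all windows. The letters ACGTG occurred in Wnt11 and Fzd9 and in 19.6% of all windows, and TATAAA in Wnt11, at 29 bases before the start, and in 13.6%. Among other members, ACGTG was also matched in the falling Wnt9a and a window of the falling Wnt5b. The Tcf and Lef core was matched in Ror1, Fzd1 and a window of Wnt5b, and TATAAA in Fzd1 and Ryk. The RUNX core, present in 16.8% of all windows, was not among the letters of these 5 windows. A match is a description of the letters and not a bound site.

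The ligands, frizzleds and co-receptors differed widely in level. Of the 34 genes, 2 (Wnt2 and Fzd10) had 0 counts in all 10 libraries, and 10 more stayed under 20 counts in every library: Wnt1, Wnt3, Wnt3a, Wnt7a, Wnt7b, Wnt8a, Wnt8b, Wnt9b, Wnt16 and Fzd3. The remaining 22 comprised 9 ligands, 8 frizzleds, both LRP co-receptors and all 3 tyrosine kinase-like receptors, and 19 of them had a mean of at least 1 FPKM over the 8 dosed libraries. The classical β-catenin activators Wnt1, Wnt3 and Wnt3a were thus at or near the floor, with at most 7 counts in any library. At 0 μM the most abundant genes were Ryk with 60.7 FPKM on average, Lrp5 with 38.0, Wnt10b with 36.8, Lrp6 with 25.0 and Fzd2 with 14.3 FPKM, each higher than the next in both libraries. In treated cells Lrp5 led with 135 FPKM, above Ryk in 6 of 6 libraries, and Ryk at 36.9 FPKM was above Wnt10b (26.6 FPKM) in 5 of 6. Fzd7 (22.4 FPKM) and Lrp6 (21.9 FPKM) changed places with the day, Fzd7 being above Lrp6 in the 3 treated libraries of day 5 and below it in the 3 of day 10.

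**Figure D1:**
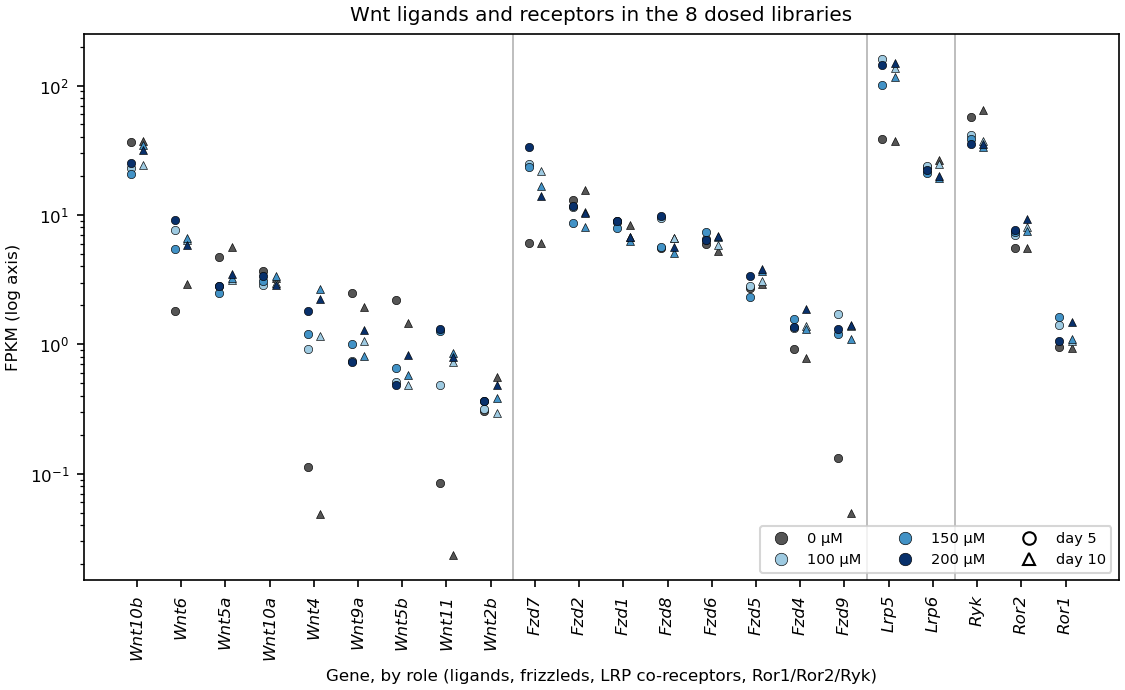
FPKM (log axis) of the 22 genes with at least 20 counts in a library, grouped as ligands, frizzleds, LRP co-receptors and Ror1, Ror2 and Ryk. Each point is 1 of the 8 dosed libraries, with the dose in colour (grey for 0 μM), circles for day 5 and triangles for day 10. The 0 μM points of Wnt4, Wnt11 and Fzd9 lie below 0.14 FPKM while their treated points lie above 0.48 FPKM.

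The effect of treatment over both days was tested in edgeR, by its quasi-likelihood method and with a term for day, on the 16794 genes that passed a filter on low counts. Genes count as called where the log2 fold change was beyond 1 in size and p, adjusted by Benjamini-Hochberg over all genes tested, was under 0.05. Of the 34 genes, 22 passed the filter. Of these, 6 were higher (27.3%) and 2 lower (9.09%), where 13.4% of all genes tested were higher and 5.98% lower. The median log2 fold change was 0.23 over the 22 genes and 0.05 over all genes tested. By role, 3 of 9 ligands, 2 of 8 frizzleds and 1 of 2 LRP co-receptors were higher, and 2 ligands were lower. No tyrosine kinase-like receptor was called, though all 3 had an unadjusted p under 0.05. So had 8645 of all 16794 genes tested. In bulk cultures a change in the amount of RNA per cell and a change in the share of cells that express a gene cannot be told apart.

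**Figure D2:**
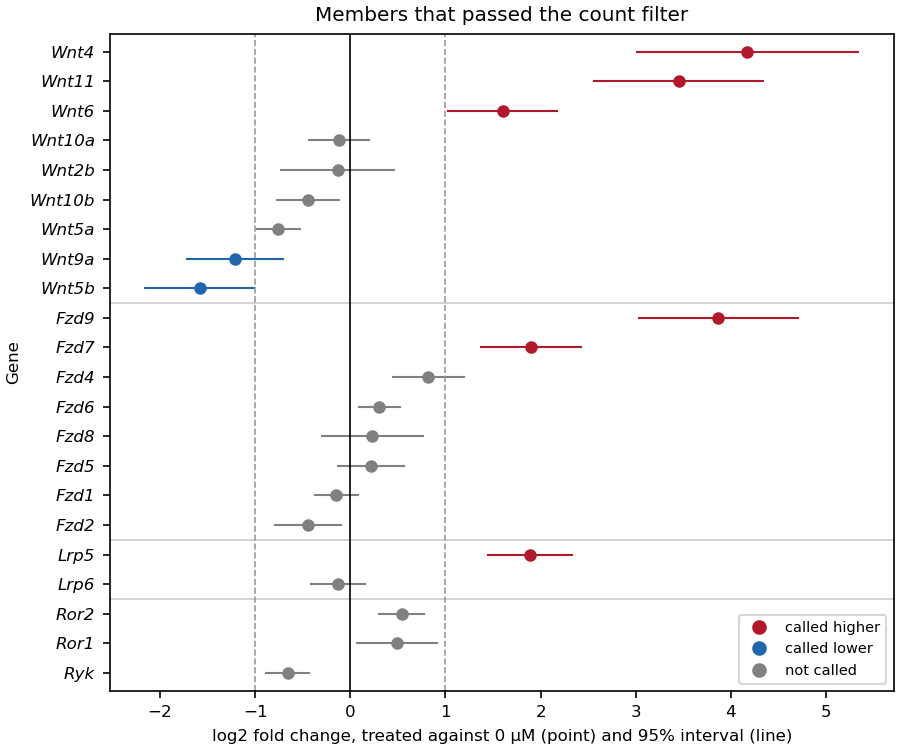
Log2 fold change of treated cells against 0 μM (points) with its 95% interval from edgeR (lines) for the 22 genes that passed the filter, by role. Dashed lines stand at a log2 fold change of −1 and 1, and red and blue mark the 6 genes called higher and the 2 called lower. The intervals of Wnt4, Wnt11 and Fzd9 lie wholly above 2 on the log2 scale.

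Among the ligands, Wnt4 (ENSMUSG00000036856, GRCm38 chromosome 4, 137277489 to 137299726, plus strand), a Wnt known from kidney and ovary development, had 0.113 FPKM at 0 μM on day 5 and 0.0491 FPKM on day 10. At 100, 150 and 200 μM it had 0.926, 1.21 and 1.80 FPKM on day 5 and 1.16, 2.65 and 2.25 FPKM on day 10. Every treated library stood above both 0 μM libraries, and the groups did not overlap. The log2 fold change was 4.17 (SE 0.52, 95% interval 3.01 to 5.34, edgeR adjusted p = 0.000195). The 0 μM values rest on 27 and 8 counts. By summed counts per depth, Wnt4 was 11.1 times the 0 μM level on day 5 (95% exact interval 7.58 to 17.0) and 39.4 times on day 10 (19.96 to 91.5), which covers counting error only.

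Wnt11 (ENSMUSG00000015957, chromosome 7, 98835112 to 98855195, plus strand), which acts mostly outside the β-catenin route and guides cell movement in the embryo, had 9 counts at 0 μM on day 5 and 3 on day 10. In treated cells it had 38, 111 and 58 counts at 100, 150 and 200 μM on day 5 and 29, 87 and 75 counts on day 10. In CPM it went from 0.184 and 0.0958 at 0 μM to between 1.07 and 1.96 in treated cells, with no overlap. The log2 fold change was 3.45 (SE 0.40, adjusted p = 0.000122 from edgeR). On day 10, against 3 counts, the ratio per depth was 14.3, with a 95% exact interval of 4.83 to 70.1. The deposited FPKM of Wnt11 does not keep a fixed ratio to its counts. FPKM per CPM ran from 0.243 at 0 μM on day 10 to 0.686 at 100 μM on day 10, a spread of 2.82 times, while the median spread over the 22 genes was 1.07 times and no other of them passed 1.25 times. RefSeq gives Wnt11 a further start at chr7:98838595-98838894 as a window. With limma on log2(FPKM + 1), a scale that compresses low genes, its change was 0.84, under the fold limit (adjusted p = 0.00312).

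Wnt6 (ENSMUSG00000033227, chromosome 1, 74771892 to 74785322, plus strand), a ligand that signals through β-catenin in several epithelia, had 1.82 FPKM at 0 μM on day 5 and 2.90 on day 10. It had 7.67, 5.46 and 9.18 FPKM at 100, 150 and 200 μM on day 5 and 6.43, 6.68 and 5.81 FPKM on day 10. The treated libraries did not overlap with 0 μM, and the log2 fold change was 1.60 (SE 0.26, edgeR adjusted p = 0.000841). Its neighbour Wnt10a lies 6193 bases away on the same chromosome and strand. Wnt10a had 3.70 and 3.24 FPKM at 0 μM and 2.86 to 3.35 FPKM in treated cells, which overlapped, with a log2 difference of −0.12 (95% interval −0.43 to 0.19).

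The ligands that fell were Wnt5b and Wnt9a. Wnt5b (ENSMUSG00000030170, chromosome 6, 119432531 to 119544347, minus strand), a Wnt of the group that includes Wnt5a and is known from cartilage, had 2.20 FPKM at 0 μM on day 5 and 1.46 on day 10. At 100, 150 and 200 μM it had 0.513, 0.661 and 0.486 FPKM on day 5 and 0.485, 0.580 and 0.823 FPKM on day 10, all below both 0 μM libraries. The log2 fold change was −1.58 (SE 0.26, edgeR adjusted p = 0.00092). Fbxl14 lies on the other strand within Wnt5b, with 9.83 to 10.4 FPKM at 0 μM and 6.68 to 8.97 FPKM in treated cells. The sources used here do not state whether counting used strand, so reads of the pair may not be fully separated. Set against A-5 and B-4 instead of 0 μM, the call of Wnt5b was lost, with a log2 difference of −0.0001 (adjusted p = 0.9999, edgeR), since these libraries had 0.575 and 0.608 FPKM.

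Wnt9a (ENSMUSG00000000126, chromosome 11, 59306928 to 59333552, plus strand), a ligand known from joint and cartilage formation, had 2.50 and 1.96 FPKM at 0 μM on days 5 and 10. It had 0.741, 1.01 and 0.730 FPKM at 100, 150 and 200 μM on day 5 and 1.06, 0.816 and 1.29 FPKM on day 10. Here too the groups did not overlap, and the log2 fold change was −1.21 (SE 0.23, adjusted p = 0.002 from edgeR). When the day 5 library at 0 μM was left out, it came to −0.80 with an adjusted p of 0.0607 from edgeR, and the call was lost. Against A-5 and B-4 instead of 0 μM it was kept (−1.32, edgeR adjusted p = 0.0141).

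Wnt10b, an activator of the β-catenin route that is known to favour osteoblasts over adipocytes, was the most abundant ligand in every dosed library. It had 36.7 and 37.0 FPKM at 0 μM, 23.0, 20.7 and 25.1 FPKM at the 3 rising doses on day 5 and 24.1, 34.9 and 31.8 FPKM on day 10. The treated libraries lay below 0 μM throughout, but the log2 difference of −0.45 (SE 0.14, edgeR adjusted p = 0.0308) was short of the fold limit. Wnt5a, the best known ligand of Ror2, had 4.72 and 5.67 FPKM at 0 μM, 2.82, 2.49 and 2.84 FPKM at the 3 rising doses on day 5 and 3.13, 3.25 and 3.48 FPKM on day 10. These did not overlap either, and the log2 difference was −0.76 (SE 0.10, edgeR adjusted p = 0.000268), also short of the fold limit. Wnt2b, the remaining ligand that was tested, ranged from 0.294 to 0.486 FPKM in treated cells and had 0.306 and 0.560 FPKM at 0 μM. Its log2 difference was −0.13, with a 95% interval from −0.72 to 0.46.

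Ligand mRNA as a whole summed to 52.2 and 52.9 FPKM at 0 μM and to 36.4 to 53.5 FPKM in treated cells, with a median of 42.9 FPKM. Its makeup shifted. Wnt10b held 69.9% and 70.3% of the ligand FPKM at 0 μM and 55.5% to 65.2% in treated cells, and Wnt6 went from 3.48% and 5.49% to between 11.7% and 20.3%. Wnt4 held at most 0.217% at 0 μM and 2.35% to 4.96% in treated cells. These shares are of mRNA per length and say nothing of the amount of protein secreted.

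Among the receptors, Fzd7 (ENSMUSG00000041075, chromosome 1, 59482424 to 59486955, plus strand), a frizzled that is common in stem and progenitor cells, had 6.05 FPKM at 0 μM on day 5 and 6.04 on day 10. It had 24.9, 23.6 and 33.5 FPKM at 100, 150 and 200 μM on day 5 and 21.7, 16.7 and 14.02 FPKM on day 10. The lowest treated library thus stood more than 2-fold above both 0 μM libraries, and the values of day 10 lay below those of day 5. The log2 fold change was 1.90 (SE 0.24, edgeR adjusted p = 0.000194). Fzd9 (ENSMUSG00000049551, chromosome 5, 135248938 to 135251230, minus strand), a frizzled whose loss in mice is known to impair bone formation, had 17 and 4 counts at 0 μM, or 0.132 and 0.0494 FPKM. At 100, 150 and 200 μM it had 1.70, 1.21 and 1.32 FPKM on day 5 and 1.39, 1.10 and 1.41 FPKM on day 10. The log2 fold change was 3.87 (SE 0.37, edgeR adjusted p = 4.48e-05). Against A-5 and B-4, with 0 and 46 counts, it was 2.21 and no longer called (edgeR adjusted p = 0.110).

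The other 6 frizzleds that were tested were not called. Fzd4, the receptor of the ligand norrin as well as of Wnts, had 0.921 and 0.790 FPKM at 0 μM, 1.33, 1.56 and 1.36 FPKM at the 3 rising doses on day 5 and 1.39, 1.32 and 1.86 FPKM on day 10. The groups did not overlap, and the log2 difference was 0.82 (SE 0.17, edgeR adjusted p = 0.00329), short of the fold limit. Against A-5 and B-4 instead of 0 μM it reversed to −0.97, since B-4 had 4.06 FPKM. Fzd2, the most abundant frizzled at 0 μM, had 13.0 and 15.5 FPKM there, 11.4, 8.59 and 11.7 FPKM at the 3 rising doses on day 5 and 10.6, 8.03 and 10.4 FPKM on day 10. Its log2 difference was −0.44 (SE 0.16, edgeR adjusted p = 0.0431), again short of the fold limit.

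Fzd6, which takes part in planar polarity, had 5.98 and 5.26 FPKM at 0 μM, 6.52, 7.33 and 6.38 FPKM at the 3 rising doses on day 5 and 5.86, 6.79 and 6.84 FPKM on day 10. The groups overlapped, and the log2 difference of 0.31 (SE 0.10, edgeR adjusted p = 0.0288) was short of the fold limit. Fzd1 had 8.90 and 8.37 FPKM at 0 μM, 8.82, 7.95 and 8.99 FPKM on day 5 and 6.77, 6.26 and 6.81 FPKM on day 10. Fzd1 therefore overlapped with 0 μM, through the treated libraries of day 5. Fzd5 had 2.71 and 2.94 FPKM at 0 μM, 2.84, 2.32 and 3.34 FPKM on day 5 and 3.08, 3.68 and 3.82 FPKM on day 10. Fzd8 had 5.52 and 6.62 FPKM at 0 μM, 9.46, 5.67 and 9.82 FPKM on day 5 and 6.58, 5.12 and 5.62 FPKM on day 10, with the high values at 100 and 200 μM on day 5 alone. The 95% intervals of the log2 differences were −0.37 to 0.08 for Fzd1, −0.13 to 0.56 for Fzd5 and −0.30 to 0.76 for Fzd8.

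The frizzleds together summed to 43.2 and 45.6 FPKM at 0 μM and to 49.0 to 76.4 FPKM in treated cells. Fzd7 made up 13.2% to 14.01% of this sum at 0 μM and 27.6% to 43.9% in treated cells, and was the most abundant frizzled in all 6 treated libraries. Fzd2 went from 30.1% to 34.0% of the sum at 0 μM to 14.7% to 20.5%.

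**Figure D3:**
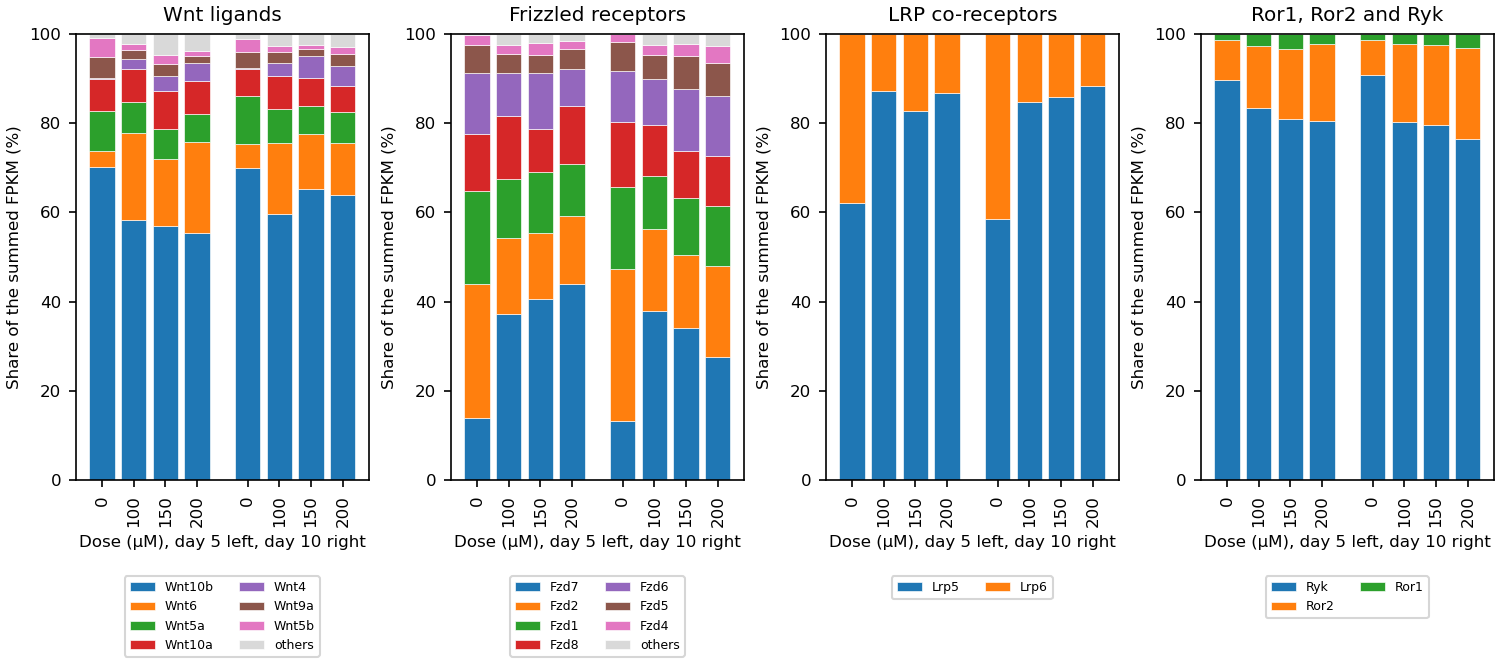
Share of the summed FPKM (%) that each gene holds within its role, with 1 stacked bar per dosed library (day 5 left and day 10 right in each panel, dose in μM on the x axis). The colours are genes, ordered by mean FPKM, with the least abundant pooled as others. The Fzd7 share rises from at most 14.01% at 0 μM to at least 27.6% in treated cells, and that of Lrp5 among the LRP co-receptors from at most 62.2% to at least 82.8%.

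Lrp5 and Lrp6 are the co-receptors that a Wnt joins to a frizzled, and the antagonists Sost and Dkk1 bind to them. Lrp5 (ENSMUSG00000024913, chromosome 19, 3584828 to 3686564, minus strand) had 38.5 and 37.5 FPKM at 0 μM on days 5 and 10. At 100, 150 and 200 μM it had 161, 102 and 144 FPKM on day 5 and 137, 116 and 150 FPKM on day 10. All treated libraries were more than 2-fold above both 0 μM libraries, and the 150 μM library was the lowest of the treated on either day. The log2 fold change was 1.89 (SE 0.20, 95% interval 1.45 to 2.33, edgeR adjusted p = 7e-05). Against A-5 and B-4 instead of 0 μM it was 0.58 (adjusted p = 0.346, edgeR), because B-4 had 143 FPKM while A-5 had 40.5 FPKM. Lrp6 (ENSMUSG00000030201, chromosome 6, 134446476 to 134566965, minus strand) had 23.4 and 26.5 FPKM at 0 μM, 23.9, 21.1 and 22.2 FPKM at the 3 rising doses on day 5 and 24.8, 19.2 and 20.05 FPKM on day 10. The groups overlapped, and the log2 difference was −0.13, with a 95% interval from −0.41 to 0.16. Lrp5 therefore went from 58.6% to 62.2% of the FPKM of the pair at 0 μM to 82.8% to 88.2%, and the sum of the pair from 61.9 and 64.1 FPKM to between 123 and 185 FPKM.

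Ryk, Ror1 and Ror2 bind Wnts without an LRP co-receptor. Ryk, the most abundant of all 34 genes at 0 μM, had 57.1 and 64.3 FPKM there, 41.8, 38.3 and 35.4 FPKM at 100, 150 and 200 μM on day 5 and 37.1, 33.7 and 35.2 FPKM on day 10. The treated libraries were all below, and the log2 difference was −0.66 (SE 0.10, edgeR adjusted p = 0.000629), within the fold limit. Ror2, the main receptor of Wnt5a, had 5.57 and 5.53 FPKM at 0 μM, 6.98, 7.43 and 7.60 FPKM on day 5 and 8.08, 7.55 and 9.34 FPKM on day 10. It was higher in all 6 treated libraries, with a log2 difference of 0.54 (SE 0.11, edgeR adjusted p = 0.00294), also within the fold limit. Ror1 had 0.951 and 0.937 FPKM at 0 μM, 1.40, 1.61 and 1.06 FPKM on day 5 and 1.06, 1.10 and 1.50 FPKM on day 10, and did not pass the test (log2 difference 0.50, edgeR adjusted p = 0.0572). The 3 summed to 63.6 and 70.8 FPKM at 0 μM and to 42.4 to 50.1 FPKM in treated cells.

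**Figure D4:**
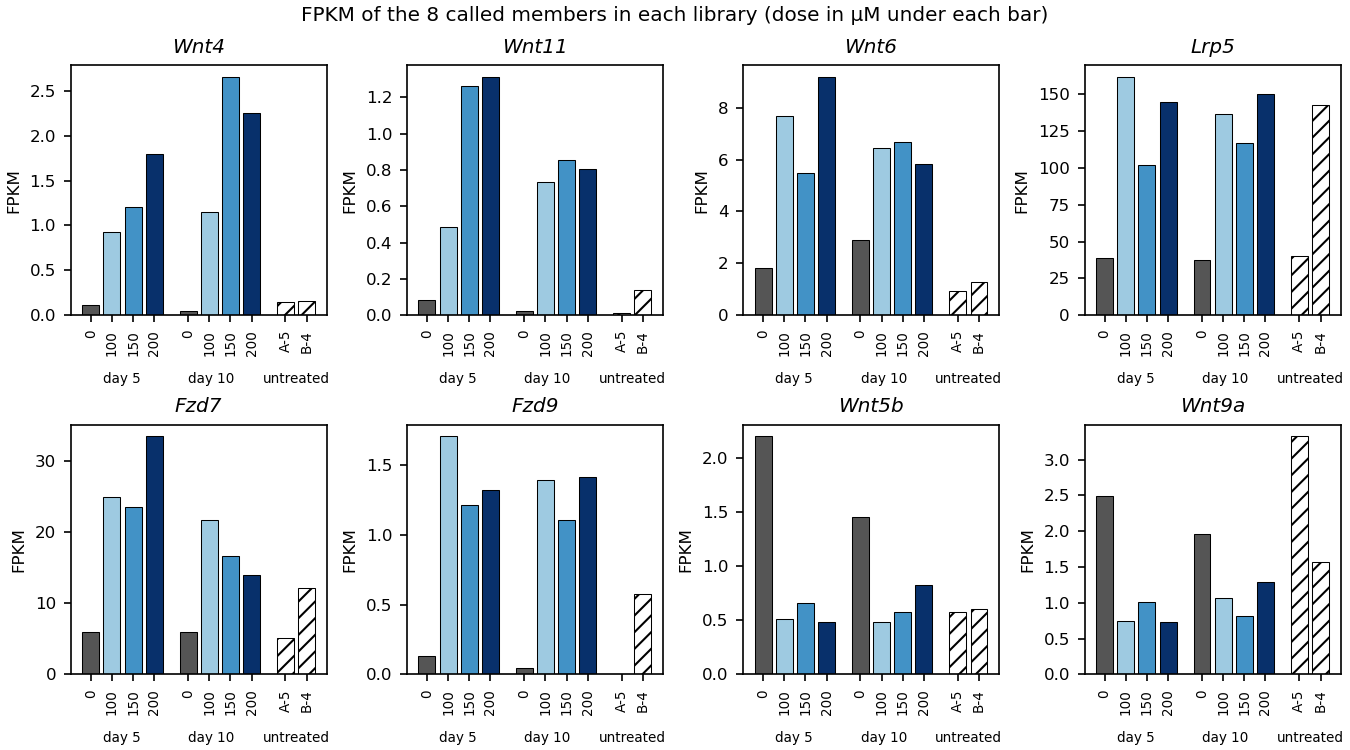
FPKM of the 8 called genes in each of the 10 libraries, with bars from 0, the dose in μM under each bar, day 5 and day 10 side by side and the untreated libraries A-5 and B-4 hatched. The treated bars of Wnt4, Wnt11, Wnt6, Lrp5, Fzd7 and Fzd9 stand above both 0 μM bars and those of Wnt5b and Wnt9a below. B-4 reaches the treated range for Lrp5 (143 FPKM) but not for Wnt4 (0.163 FPKM) or Wnt6 (1.30 FPKM).

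Within each day the same model, with 4 groups of dose and day, gave the response to treatment from 3 treated libraries against 1 at 0 μM. The single 0 μM library of a day has no spread of its own, so it is assumed to vary like the treated libraries, from which alone the spread was estimated. On day 5, 23 members were tested, of which 6 were higher and 2 lower, where 8.93% of all genes tested were higher and 4.35% lower. These tests use the same libraries as the test over both days and are no repeat of it. On day 5 log2 fold changes were 3.50 for Wnt4, 3.40 for Fzd9, 3.22 for Wnt11, 2.18 for Fzd7, 2.04 for Wnt6, 1.83 for Lrp5, −1.96 for Wnt5b and −1.57 for Wnt9a. On day 10, 8 of 23 were higher and 1 lower, where 11.2% of all genes tested were higher and 5.78% lower. Log2 fold changes were 5.27 for Wnt4, 4.75 for Fzd9, 3.85 for Wnt11, 1.94 for Lrp5, 1.63 for Fzd7, 1.20 for Wnt6, 1.03 for Fzd4 and −1.15 for Wnt5b, and Wnt9a had −0.81 (edgeR adjusted p = 0.0579).

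The eighth riser of day 10 was Wnt8b, a ligand of the early forebrain. It had 0 counts at 0 μM on day 10 against 5, 8 and 16 counts at 100, 150 and 200 μM. That is at least 2.18-fold higher against the floor of 3 counts, if each count is 1 fragment. On day 5 it had 10 counts at 0 μM and 2, 8 and 2 counts in treated cells. Its call on day 10 (edgeR adjusted p = 0.0487) was lost with DESeq2 (adjusted p = 0.0977), with library totals without TMM (0.0540) and without the 100 or 200 μM library of day 5 or the 100 μM library of day 10 (0.0618, 0.0701 and 0.0655). The fall of Wnt5b on day 10 was lost without the 100 μM library of that day (log2 −0.995, adjusted p = 0.0446) or the 150 μM library (adjusted p = 0.0577, edgeR), and the rise of Fzd4 without the 200 μM library of that day (log2 0.89) or with library totals without TMM (log2 0.94).

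The difference between the responses on day 5 and day 10 was itself tested. By edgeR, 0 of 23 members were called, where 0% of all genes tested were called for a larger and 0.0112% for a smaller log2 fold change on day 10. Wnt8b had the largest fitted difference (95% interval 2.12 to 12.4 on the log2 scale), on the few counts given above, with 0 counts at 0 μM on day 10. The difference was 1.77 on the log2 scale for Wnt4 (95% interval −0.27 to 3.82), 1.35 for Fzd9 (−0.17 to 2.88), −0.83 for Wnt6 (−1.74 to 0.07) and −0.56 for Fzd7 (−1.44 to 0.32). With 1 library at 0 μM on each day the intervals of Wnt4, Fzd9, Wnt6 and Fzd7 each included 0.

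Between the treated cells of day 10 and day 5 (3 libraries each), 0 of 22 members tested were called by edgeR, where 0.905% of all genes tested were higher on day 10 and 0.144% lower. Of the members, 7 had an unadjusted p under 0.05, as had 2930 of all 16020 genes tested. The nearest to a call was Wnt10b, from 22.9 ± 2.19 FPKM (SD, n = 3) on day 5 to 30.3 ± 5.52 FPKM (SD, n = 3) on day 10. Its log2 difference was 0.50 (SE 0.12, edgeR adjusted p = 0.0665). Wnt4 went from 1.31 ± 0.445 to 2.02 ± 0.775 FPKM (SD, n = 3 each; log2 difference 0.71, SE 0.31) and Fzd7 from 27.4 ± 5.37 to 17.5 ± 3.91 FPKM (SD, n = 3 each; log2 difference −0.56, SE 0.19). Neither passed the test, with edgeR adjusted p-values of 0.258 and 0.167. Lrp5 had 136 ± 30.8 FPKM on day 5 and 134 ± 17.0 FPKM on day 10 (SD, n = 3 each).

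Over the 6 treated libraries a linear term for dose, with day in the model, gave the log2 change per 50 μM, called at an adjusted p under 0.05. By edgeR, 0 of 22 members were called, where 0.006% of all genes tested rose with dose and 0% fell. Of the members, 1 had an unadjusted p under 0.05, as had 391 of all 16664 genes tested. This was Wnt4, with a slope of 0.44 per 50 μM (95% interval 0.12 to 0.77, unadjusted p = 0.0133, adjusted p = 0.997 from edgeR). Its FPKM rose in order of dose on day 5 (0.926, 1.21 and 1.80) but was highest at 150 μM on day 10 (1.16, 2.65 and 2.25). Depth was not balanced over the doses, with 29833654 and 27108562 counts at 100 μM on days 5 and 10 against 57220036 and 58218009 counts at 150 μM, and its part in this slope was not tested.

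Genes that act with the Wnts and their receptors were taken from 9 lists by role and read in the same fit, in which 13.4% of all genes tested were higher and 5.98% lower. Among 4 genes of Wnt secretion, 1 rose, Porcn, the enzyme that attaches the lipid, from 3.63 and 4.22 FPKM at 0 μM to between 33.1 and 62.1 FPKM in treated cells (log2 fold change 3.62, SE 0.27, edgeR adjusted p = 9.48e-06). In the untreated B-4 it had 39.5 FPKM, and against A-5 and B-4 its call was lost (edgeR adjusted p = 0.315). Of 6 other Wnt co-receptors tested, Lrp4, a relative of Lrp5 and Lrp6 that binds Sost, rose from 5.38 and 5.43 FPKM to between 14.2 and 39.2 FPKM (log2 fold change 2.20, SE 0.30). The median of this list was 0.04 on the log2 scale, against 0.05 over all genes tested.

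R-spondins and their Lgr receptors strengthen Wnt signals by keeping frizzleds on the cell surface, and the ligases Rnf43 and Znrf3 remove them. Of 5 R-spondin and Lgr genes tested, Rspo2 fell from 14.7 and 21.2 FPKM at 0 μM to between 1.37 and 7.55 FPKM (log2 fold change −2.74, SE 0.44, edgeR adjusted p = 0.000837). Lgr5 was called higher on few counts, with 2 and 0 counts at 0 μM and 2 to 18 in treated libraries. Of the 2 ligases, Rnf43 rose from at most 0.325 FPKM to between 1.61 and 4.29 FPKM (log2 fold change 3.203, SE 0.32). Znrf3 had 4.93 and 5.16 FPKM at 0 μM and 3.04 to 3.62 FPKM in treated cells, a log2 difference of −0.56, within the fold limit.

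Of 8 secreted antagonists tested, 3 were called higher and 0 lower (13.4% and 5.98% over all genes tested), with a median log2 fold change of 0.86. Dkk3, the most abundant of this list, had 172.7 and 185.4 FPKM at 0 μM and 88.6 to 105.8 FPKM in treated cells. Its log2 difference of −0.80 (SE 0.10, edgeR adjusted p = 0.0001785) was within the fold limit. Wif1, which binds Wnts in the medium, had 10 and 5 counts at 0 μM and 207 to 8759 counts in treated libraries, or 0.0591 and 0.0744 FPKM against 2.67 to 61.2 FPKM. Dkk2, which binds Lrp5 and Lrp6, went from at most 0.0312 FPKM to between 0.648 and 2.16 FPKM (log2 fold change 5.30, SE 0.54). Sost, the osteocyte inhibitor of the same co-receptors, had 0 counts in both 0 μM libraries and counts in 3 of 6 treated libraries, at most 38. That is at least 6.56-fold higher against the floor of 3 counts over the group, if each count is 1 fragment. The call of Sost was lost against A-5 and B-4 (edgeR adjusted p = 0.234).

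Of 13 target genes of the β-catenin route tested, 7 rose and 0 fell (13.4% and 5.98% over all genes tested), with a median log2 fold change of 1.61. The list was chosen with earlier results of these data known, so its share is a description and no test. Axin2, a feedback inhibitor that is widely used as a readout of the route, had 0.424 and 0.477 FPKM at 0 μM and 9.45 to 15.3 FPKM in treated cells (log2 fold change 4.80, SE 0.25, edgeR adjusted p = 1.5e-06). Nkd2, an inhibitor that binds dishevelled, had 4 and 0 counts at 0 μM and 23 to 181 counts in treated libraries. Nkd1 had 0 counts at 0 μM and 2 to 20 counts in treated libraries, at least 6.65-fold higher against the same floor and on the same condition. The other risers of this list were Tcf7, Lef1, Rnf43 and Lgr5. Ccnd1 and Myc, targets in many cell types, were not called, with log2 differences of −0.05 and 0.60. Against A-5 and B-4 instead of 0 μM, Axin2, Nkd1, Nkd2, Lef1, Tcf7, Rnf43, Myc and Wisp1 were called higher, Lgr5 was not called, and Notum was called lower (log2 −1.86, edgeR adjusted p = 0.0378).

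Of 21 cytoplasmic transducers tested, 5 were higher and 1 lower (13.4% and 5.98% over all genes tested), with a median of −0.14, and the risers with the largest fold changes were again Nkd1, Nkd2 and Axin2. Of 12 nuclear transducers, 3 rose and 0 fell. These were the β-catenin partners Tcf7 (log2 fold change 1.93, SE 0.47) and Lef1 (1.61, SE 0.20) and the corepressor Tle1 (1.32, SE 0.12). Of 12 genes of planar polarity, 2 rose and 0 fell, Prickle1 (2.75, SE 0.18) and Daam2 (1.38, SE 0.11), with a median of −0.11 over the list. Against the 13.4% of all genes tested that were higher, the planar polarity list was near the background. With A-5 and B-4 in place of 0 μM, Tcf7, Lef1 and Prickle1 stayed called. Tle1 (log2 difference 0.13, edgeR adjusted p = 0.782) and Daam2 (0.81, short of the fold limit) were no longer called. In B-4 Tle1 had 21.8 FPKM, above its treated libraries at 13.4 to 19.2 FPKM. In these lists the shares called were not tested against other genes, and several genes stand in more than 1 list.

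**Figure D5:**
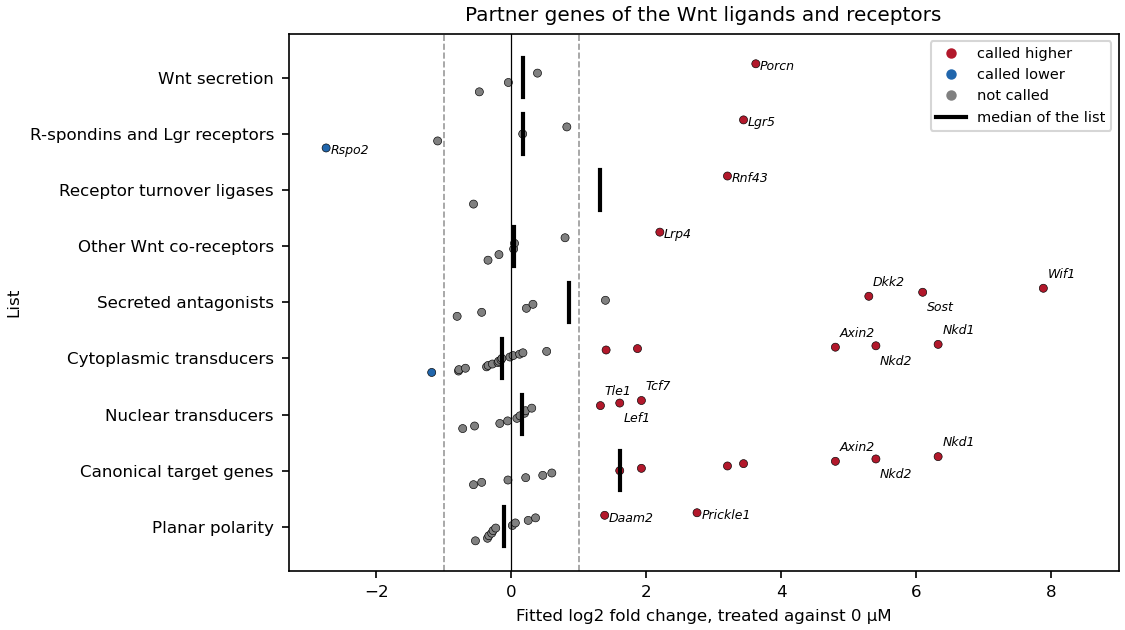
Fitted log2 fold change of treated cells against 0 μM for the tested genes of each partner list, 1 point per gene, with the median of the list as a black bar, dashed lines at −1 and 1, and called genes in red (higher) or blue (lower), the named ones being up to 3 per list with the largest change. The points of Nkd1 and Sost, with 0 counts at 0 μM, depend on the prior count of the fit. Of 13 target genes 7 lie in red, and of 21 cytoplasmic transducers 5. The lists were chosen with earlier results of these data known.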

How the data were processed

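RNA of MC3T3-E1 cells was sequenced by the authors on the Illumina platform after oligo(dT) enrichment. The authors deposited 1 table, which holds raw counts and FPKM of each gene for 10 libraries. The submitters' processing notes name HISAT2 2.0.4 and GATK 3.2-2, without a role; the counting program, genome build and use of strand are not given in the sources used here. Counts of 2 were more frequent than counts of 1 (1020 to 1412 genes against 229 to 315 per library), so a fragment may count as a pair of reads, and counting intervals are then too narrow. The floor of 3 counts is then too low, and ratios given as at least a value are too high. The table's columns with the authors' own comparisons of libraries by edgeR (fold changes and p-values) were not used. Value columns were assigned to libraries through the codes that sample titles carry.

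Counts were fitted with edgeR 4.0.16 in R 4.3.3 (TMM normalization, filterByExpr, quasi-likelihood test, common biological coefficient of variation 0.166). Treated libraries were compared with 0 μM with day as a covariate, within days by a model with 4 groups, and between days and by dose within treated libraries. All p-values were adjusted over all genes tested. Levels and shares are FPKM, compared between genes only on that scale. Alternatives were DESeq2 1.42.0, limma 3.58.1 on log2(FPKM + 1) and log2(FPKM + 0.1), other normalizations and filters, no fold limit, no day covariate, each library left out and the untreated libraries as controls. A covariate for library depth (over 40000000 counts or not) was chosen after seeing the data. The scripts were tested on simulated data. Gene positions are from GENCODE M21 (GRCm38) by Ensembl identifier. The members and lists were chosen with earlier results of these data known. Values per library are given for members that were called in a test, that had a mean of at least 1 FPKM over the dosed libraries or that are ligands that passed the filter, and up to 3 called genes with the largest change from each partner list are named. Ccnd1, Myc, Wisp1, Notum, Znrf3, Dkk3 and the osteoblast markers were named after their values were seen.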

Additional observations from a re-analysis of the deposited data

Results flagged for a closer look

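The untreated libraries A-5 and B-4 entered no comparison of the report except as alternatives, and a member was looked at again where an untreated library stood more than 2-fold above both 0 μM libraries with at least 20 counts. This was so for 4 genes, each in B-4. Lrp5 had 143 FPKM in B-4, against 37.5 and 38.5 FPKM at 0 μM and 102 to 161 FPKM in treated cells, and 40.5 FPKM in A-5. Fzd7 had 12.2 FPKM in B-4, between 6.05 FPKM at 0 μM and the lowest treated library at 14.02 FPKM. Fzd4 had 4.06 FPKM in B-4, above all 8 dosed libraries, which reached 1.86 FPKM. Fzd9 had 0.575 FPKM in B-4, from 46 counts, while A-5 had 0 counts. Falls were outside this rule. Wnt5b had 0.575 FPKM in A-5 and 0.608 FPKM in B-4, against 1.46 and 2.20 FPKM at 0 μM. Wnt5a had 1.80 FPKM in B-4, against 4.72 and 5.67 FPKM at 0 μM.

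The other risers stayed below every treated library in B-4. Wnt4 had 0.163 FPKM (24 counts) and Wnt11 0.141 FPKM (14 counts). Both were above the 0 μM libraries, which reached 0.113 FPKM for Wnt4 and 0.0843 FPKM for Wnt11. Wnt6 had 1.30 FPKM, below both 0 μM libraries (1.82 and 2.90 FPKM). Of the 8 genes called in treated cells, B-4 lay within the treated range for 2 and between 0 μM and the treated range for 5. It lay below all 8 dosed libraries for 1. A-5 lay within the treated range for 1, between for 2, below all 8 dosed libraries for 4 and above them for 1. The labels give these libraries no dose or time, so the difference between A-5 and B-4 cannot be attributed to a group and was not tested.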

How the results depend on the processing

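In the comparison of treated cells with 0 μM, 6 members were higher and 2 lower. Over all 16794 genes tested, 2254 were higher and 1005 lower. With at least 10 counts required in every library 3 were higher, since Wnt4, Wnt11 and Fzd9 were then not tested. Of all 13268 genes then tested, 1099 were higher and 737 lower. Without a fold limit 9 were higher and 6 lower, against 3790 and 3490 of all 16794 genes tested. With limma on log2(FPKM + 1) 0 were lower (Wnt5b and Wnt9a kept adjusted p-values of 0.00104 and 0.0026 but lost the fold limit, which this scale makes harder for low genes). Over all 16794 genes this limma fit gave 526 higher and 612 lower. With A-5 and B-4 as the only controls 4 were higher and 1 lower, against 1078 and 460 of all 16012 genes tested. With them as further controls beside 0 μM 5 were higher and 1 lower, against 1286 and 453 of all 15285 genes tested. Lrp5 and Wnt5b were not called under either, with edgeR adjusted p-values of 0.0618 and 0.0634 under the latter. When single libraries were left out, 6 to 7 were higher and 1 to 2 lower on both days together, and on day 10 alone 6 to 7 were higher and 0 to 1 lower (8 and 1 with all libraries). Depth class as a covariate gave 6 higher and 2 lower, against 2323 and 1030 of all 16794 genes tested.

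Directions reversed for members that were not called. With A-5 and B-4 as the only controls the log2 difference was 0.38 for Wnt5a, 0.0196 for Wnt10b, 0.63 for Wnt2b, 0.62 for Fzd1, −0.97 for Fzd4 and 0.0044 for Fzd2. With them added it was 0.18 for Wnt2b, 0.20 for Fzd1 and −0.33 for Fzd4, and with A-5 alone added 0.0002 for Wnt2b and 0.0651 for Fzd1. Leaving out single libraries at 0 μM gave ranges that crossed 0, from −0.25 to 0.0179 for Wnt10a, −0.11 to 0.60 for Fzd8 and −0.43 to 0.19 for Wnt2b. The cause was not tested.

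Same-numbered doses on day 5 and day 10 had deviations from their day's mean that correlated by 0.117 (100 μM), 0.136 (150 μM) and −0.0594 (200 μM) over 16020 genes. Between unlike doses the correlations ran from −0.164 to 0.0664. Whether same-numbered doses are more alike was not tested. With dose as a replicate block, 0 members were called between days 10 and 5 in either direction, as without it. Depth limits what was seen of the 12 members under 20 counts in every library. With 1 library at 0 μM per day, differences between days in the response were not resolved, including 1.77 on the log2 scale for Wnt4 and 1.35 for Fzd9.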
